A study of Drosophila melanogaster with 16 samples.

Results

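The smoke effect common to both sexes was taken as the average difference between 8 smoke and 8 air libraries of larval trachea, with sex as a term, for genes that moved in 1 direction in females and in males. Of 17559 genes in each deposited table, 8606 had a normalised count of at least 10 in at least 4 libraries of each sex and were tested. Of these, 2838 (33%) passed a limma adjusted p of 0.05, and the 2832 (32.9% of those tested) with the same direction in both sexes are the members described here. In smoke 1608 of them were higher (18.7% of the genes tested) and 1224 were lower (14.2%). The libraries came from trachea of Drosophila melanogaster larvae of the genotype Canton S, a wild-type laboratory strain that all groups share. Larvae had breathed mainstream smoke of 3R4F research cigarettes, made at 4 puffs per min over 60 min, or were air controls. Each sex and treatment was represented by 4 libraries, which gave the groups air female, smoke female, air male and smoke male. No source used here gives the larval age or the time from exposure to dissection.

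The trachea of the insect is a branched tube of a single epithelial layer lined with cuticle, through which air reaches the tissues, and its cells face whatever is inhaled. Reactive compounds, oxidants and metals in smoke can damage proteins and membranes. Cells answer such damage through a few conserved routes. Heat shock factor drives chaperones, the transcription factor CncC (the fly Nrf2, held back by Keap1) drives glutathione and antioxidant enzymes, MTF-1 drives metallothioneins, the JNK kinase pathway signals wounds and stress, and the NF-kappaB factors of the Imd and Toll pathways signal infection.

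Between 15036560 and 23434521 reads per library were assigned to genes, and replicates 1 and 2 (19367755 to 23434521 reads) were deeper than replicates 3 and 4 (15036560 to 19431772). Values are normalised counts, the number of reads divided by the size factor of the library, set separately in each sex. Each log2 change compares smoke with air on the log2(count + 1) scale, with its SE over 16 libraries, and such values understate the change of genes with few reads. Where a mean count of a group is given with ±, the spread is the SD of its 4 libraries. Nothing in the labels says that a replicate is a separate culture or set of animals. The p-values therefore cover only the spread among these samples, and that spread may be technical. Whether counting used strand is not stated, so an overlapping or antisense gene may share its reads with its partner. Defining markers of trachea were present in all 16 libraries, and male air replicate 3 stood apart by its salivary gland and fat body RNA, as described with the tissue markers.

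Most members changed by little. Among the higher genes the median log2 change was 0.41 in females and 0.40 in males, and 87.4% of them changed less than 2-fold on average. Among the lower genes the medians were -0.48 and -0.34, and 76.1% changed less than 2-fold. A change of at least 2-fold on average was seen for 202 higher genes (2.35% of those tested) and 292 lower genes (3.39%). It was reached in each sex by 154 and 179 genes. All smoke libraries lay above all air libraries in both sexes for 675 of the higher genes (7.84% of all genes tested were separated in this direction). For 191 of the lower genes all smoke libraries lay below all air libraries in both sexes (2.24%). The split of 1608 higher and 1224 lower genes depended on scaling. When every library was given the same upper quartile it was 1106 and 2135, and with the same total 1053 and 1993. Both scalings shifted the median over all genes from -0.02 to -0.12 (log2). A gene can pass the filter on low values through its high group. Of the lower genes 195 did not reach it by their smoke libraries alone. Of the higher genes 7 did not, and 57 reached it by their smoke libraries but not by their air libraries alone.

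**Figure D1:**
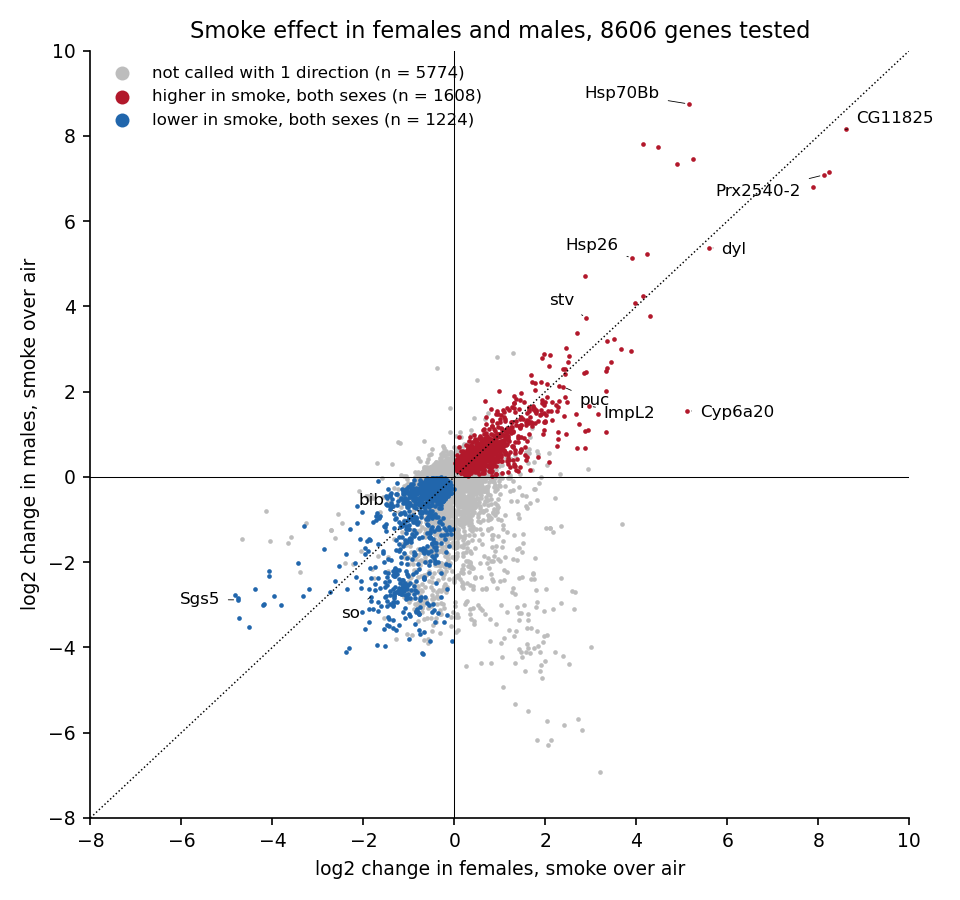
Each point is 1 of 8606 genes tested, with its log2 change (smoke over air) in females on the horizontal axis and in males on the vertical axis. Red marks the 1608 genes called higher and blue the 1224 called lower with 1 direction in both sexes, grey marks the other genes, and the dotted line marks equal change. The largest rise, CG11825, lies near that line (8.60 in females and 8.15 in males), and Hsp70Bb lies well above it (5.16 and 8.75). Among the lower genes the median change was -0.48 in females and -0.34 in males.

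Each sex tested alone on the same 8606 genes gave fewer calls than the average over both. Females alone gave 1572 genes (18.3%), males alone 1174 (13.6%), and 560 genes (6.51%) were called in each with the same direction, 497 higher and 63 lower. These 560 were 35.6% of the female and 47.7% of the male calls. Of the 2832 members, 1328 were also called in females alone and 958 in males alone, and 1106 were called in neither alone. A direct test of the female minus the male change called 187 genes (2.17%), of which 23 were members. In the authors' deposited table of each sex, 681 genes were listed as upregulated in females and 429 in males, and 316 were in both lists. Of these 316 genes 309 were tested here, and all 309 were higher members. The authors' deposited table of downregulated genes held 602 genes for females and 1156 for males, with 168 in both, of which 124 were tested and 120 were lower members.

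Over all genes tested 18.7% were higher and 14.2% lower, the shares beside which each list count below is to be read. Heat shock genes gave many of the largest rises. Of 7 small heat shock protein genes tested, which encode chaperones that hold unfolded proteins, 5 were higher and 1 lower, with a median log2 change of 1.20 against -0.02 for all genes tested. Of 17 genes for Hsp70, Hsp83, their partners and heat shock factor, 13 were higher and none lower, with a median of 1.01. After rescaling to the same upper quartile this became 9 higher and 2 lower, and with the same total 9 and 1. The constitutive chaperone genes Hsc70-4 and Hsp60A rose by 0.31 ± 0.10 (limma adjusted p = 0.0287) and 0.14 ± 0.05 (limma adjusted p = 0.0386), and Hsp83 by 1.01 ± 0.15 (limma adjusted p = 0.000135). The gene of heat shock factor itself, Hsf, rose by 0.28 ± 0.07 (limma adjusted p = 0.00932).

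The co-chaperone gene stv (FBgn0086708, chromosome arm 3L), whose BAG domain protein releases clients from Hsp70, was well expressed in air. Its normalised counts in females were 1614, 3314, 2242 and 2795 in air replicates 1 to 4 and 17598, 14328, 18069 and 22874 in smoke. Male libraries held 1830.3, 1414, 2032 and 1937 in air and 22351, 20141, 23450.5 and 30015 in smoke. The lowest smoke library lay far above the highest air library in each sex. The average log2 change was 3.32 ± 0.18 (limma adjusted p = 6.2e-09), 2.90 in females and 3.73 in males. The Hsp40 gene DnaJ-1 rose by 3.04 ± 0.20 (limma adjusted p = 6.93e-08), also with no overlap.

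Another chaperone gene, Hsp26 (FBgn0001225, chromosome arm 3L), was more variable in air. Its counts were 313, 2915, 425 and 675 in female air and 15434, 8548, 7108 and 14467 in female smoke. Among males the counts were 396, 775, 245 and 1730.1 in air and 21102, 22991, 14321 and 28889 in smoke. Female air replicate 2 was the highest of the air libraries, and all smoke libraries still lay above it. The average log2 change was 4.52 ± 0.47 (limma adjusted p = 5.07e-06). Its neighbours in function Hsp23, Hsp67Bc and Hsp27 rose by 2.36 ± 0.33, 2.42 ± 0.40 and 1.20 ± 0.25, with limma adjusted p-values of 8.56e-05, 0.000329 and 0.00191. In Hsp23, Hsp67Bc and Hsp27 female air replicate 2 reached into the range of the female smoke libraries. The single lower gene of this list, l(2)efl, an alpha-crystallin type gene also expressed in muscle, changed by -1.88 ± 0.61 (limma adjusted p = 0.0278).

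The stress-induced Hsp70 copies were almost silent in male air. Their sequences are near-identical, so the split of reads among copies is uncertain. Counts of Hsp70Bb (FBgn0013278, chromosome arm 3R) were 1.55, 55.2, 1.26 and 19.9 in female air and 619.5, 297, 174 and 339.8 in female smoke. For males the values were 2.48, 0, 0 and 0.958 in air and 829, 933, 283 and 1063 in smoke. Smoke and air did not overlap in either sex, and female air replicates 2 and 4 were above the other air libraries. The copy Hsp70Bbb was at 0 in all 4 male air libraries and at 136, 210.4, 90 and 263 in male smoke. Fitted average log2 changes of 5 copies, Hsp70Ab, Hsp70Ba, Hsp70Bb, Hsp70Bbb and Hsp70Bc, lay between 5.97 and 6.95. They depend on the pseudocount because male air held so few reads. By sex the changes of these copies ran from 4.14 to 5.25 in females and from 7.34 to 8.75 in males. The difference between the sexes passed its own test for none of the 5 (limma adjusted p from 0.155 to 0.383). The related Hsp68, which had a measurable level in every air library (329.9 ± 34.6 in females and 212 ± 159 in males, SD, n = 4), rose to 2699 ± 1426 and 5571 ± 3764. On the log2 scale it changed by 3.79 ± 0.44 (limma adjusted p = 1.53e-05).

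The largest rises of all came from neighbouring genes on chromosome arm 2R that hold peroxiredoxins, enzymes that reduce peroxides. Counts of CG11825 (FBgn0033519, chromosome arm 2R) were 11.6, 12.3, 50.4 and 8.83 in female air and 6172, 6809, 7675 and 5938 in female smoke. In males they were 42.9, 9.34, 24.2 and 10.5 in air and 6426, 3053, 7212 and 6118 in smoke. Air libraries were at most at 50.4 and smoke libraries at least at 3053, with no overlap. The average log2 change was 8.38 ± 0.36 (limma adjusted p = 7.09e-10), 8.60 in females and 8.15 in males. The peroxiredoxin genes Prx2540-2, Prx2540-1 and CG12896 changed by 7.61 ± 0.58, 7.35 ± 0.50 and 7.69 ± 0.54, with no overlap of smoke and air in either sex. Prx2540-1 and Prx2540-2 are near-identical, so their reads may be shared out arbitrarily. Another gene of the run, CG33474, rose by 1.44 ± 0.26 (limma adjusted p = 0.00062). In air, replicate 3 of both sexes held the most Prx2540-2, at 272 and 226, and in smoke replicate 3 of both sexes was again the highest, at 30737 and 28928.

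**Figure D2:**
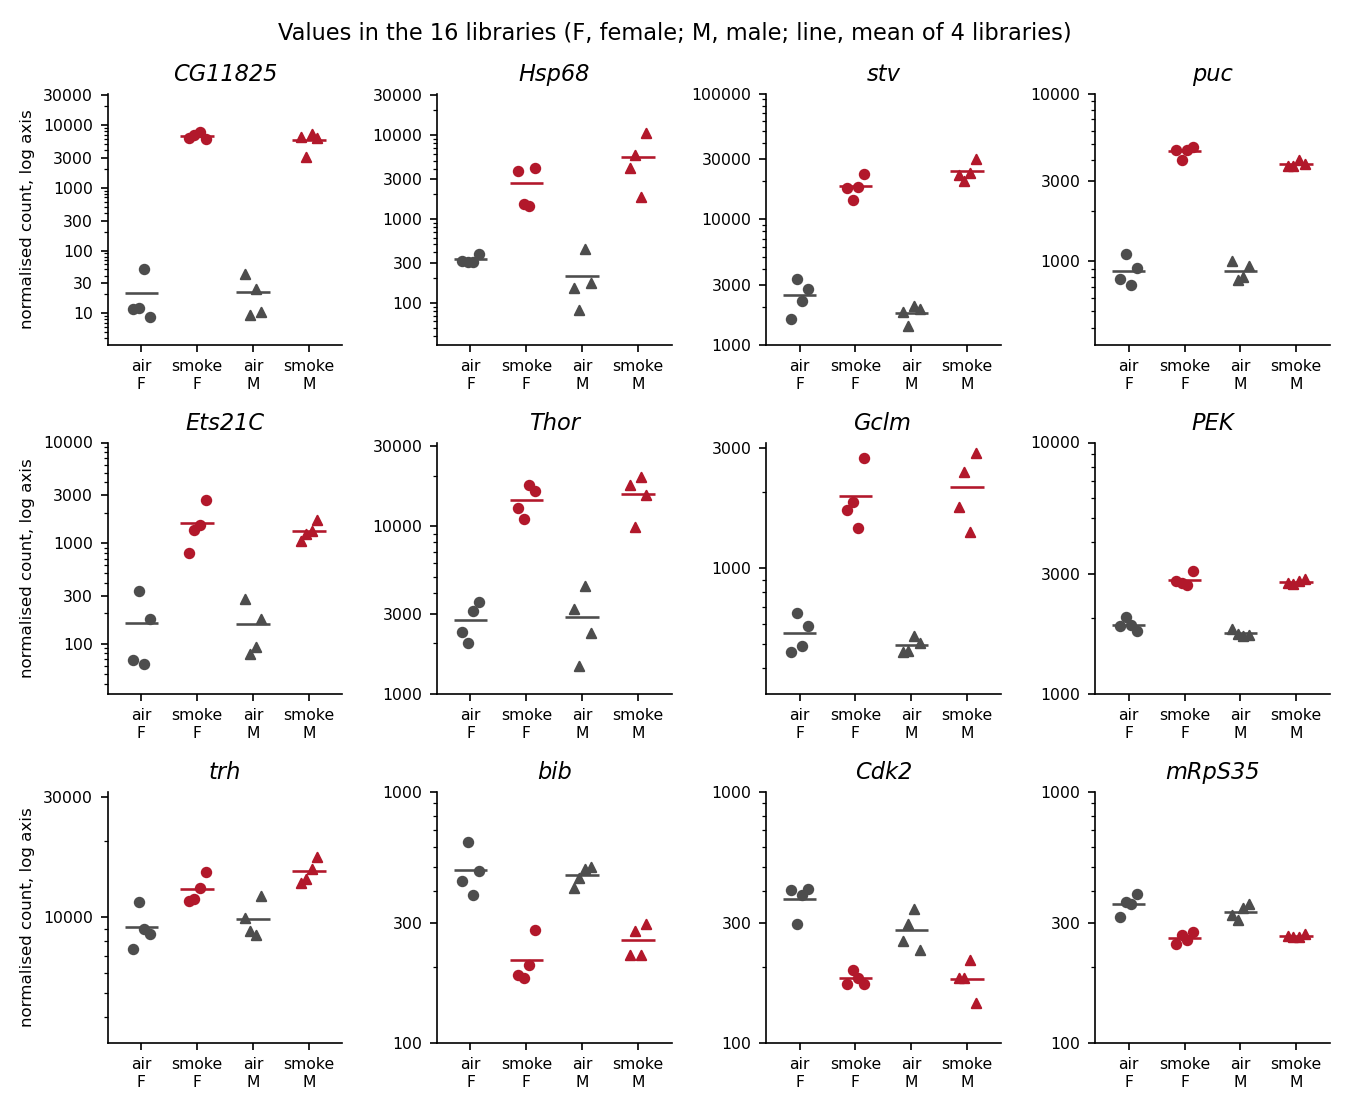
Normalised counts on a log axis of 12 member genes in each of the 16 libraries, with circles for females (F), triangles for males (M), grey for air, red for smoke and a line at the mean of 4 libraries. For the 9 genes from CG11825 to trh all smoke libraries lie above all air libraries of their sex, and for bib, Cdk2 and mRpS35 all lie below.

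Of 22 genes listed under peroxiredoxins and other antioxidant enzymes 7 were higher and 3 lower, with a median of 0.12. The median was 0.02 under either rescaling, and lower genes numbered 1 without female smoke replicate 1 or 2 and 6 with the same total. The run supplied 4 of the 7, among them CG11825, which lies beside the peroxiredoxin genes and is not named as one here. Catalase (Cat) rose by 0.60 ± 0.18 (limma adjusted p = 0.0216), Irc, an immune-regulated catalase, by 0.73 ± 0.15 (limma adjusted p = 0.00191), and the thioredoxin reductase gene Trxr-1 by 0.41 ± 0.09 (limma adjusted p = 0.00195). The lower genes were Pxd (-1.72 ± 0.60), Prx6005 (-0.39 ± 0.07) and Jafrac2 (-0.23 ± 0.07). The superoxide dismutase genes Sod1 and Sod2 were not called, at -0.13 ± 0.10 and -0.22 ± 0.13.

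Genes of the CncC and glutathione route rose together. Of 7 tested, 6 were higher and none lower, with a median of 0.54. Glutamate-cysteine ligase limits glutathione synthesis, and both of its subunits rose. For the modifier subunit Gclm (FBgn0046114, chromosome arm 3R) the counts were 463, 663, 490.3 and 588 in female air and 1702, 1827, 1444 and 2753 in female smoke. Male libraries held 462, 467, 535 and 505 in air and 1744, 2419.6, 1393 and 2864 in smoke. Every smoke library was at least at 1393, above every air library. Gclm rose by 1.91 ± 0.15 (limma adjusted p = 3.55e-07) and the catalytic subunit gene Gclc by 1.90 ± 0.21 (limma adjusted p = 7.41e-06). The sensor pair changed less, with cnc at 0.54 ± 0.07 (limma adjusted p = 4.39e-05) and Keap1 at 0.35 ± 0.10 (limma adjusted p = 0.0138). The p62 gene ref(2)P, whose protein binds Keap1 and ubiquitinated cargo, rose by 0.89 ± 0.07 (limma adjusted p = 4.64e-07).

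Gene lists of detoxification enzymes differed in their share of calls. Of 29 glutathione S-transferase genes, whose products join glutathione to reactive compounds, 11 were higher and 3 lower, with a median of 0.51. Their medians differed in size between the sexes, at 0.61 in females and 0.11 in males. The list median was 0.22 by edgeR and 0.20 by DESeq2, which called 7 higher and 4 lower, and with replicates 3 and 4 alone it was 0.0053, with 5 higher and 1 lower. The neighbours GstD2, GstD3 and GstD4 rose by 2.02 ± 0.33, 1.29 ± 0.22 and 1.78 ± 0.56, and GstE1 by 1.48 ± 0.21. The marker gene of this response in flies, GstD1 (FBgn0001149, chromosome arm 3R), had counts of 22418, 20426, 35813 and 32482 in female air and 32627, 37198, 45674 and 52786 in female smoke. Among males the counts were 28252, 23819, 33813 and 33012 in air and 37701, 34245, 43643 and 52413 in smoke. Smoke and air overlapped in females, and the average log2 change was 0.55 ± 0.14 (limma adjusted p = 0.00809). GstD1 is one of the 1106 members called in neither sex alone. Of 55 cytochrome P450 genes, oxidising enzymes of toxins and hormones, 9 were higher and 9 lower. These counts are near the shares of all genes tested, 18.7% higher and 14.2% lower. The list medians were 0.21 in females and -0.35 in males. Cyp6a20 and Cyp18a1 rose by 3.34 ± 0.60 and 2.34 ± 0.49, and Cyp6g1, known from insecticide resistance, changed by -2.06 ± 0.66 (limma adjusted p = 0.0259). Without female air replicate 2 the lower P450 genes numbered 16. Of 12 UDP-glycosyltransferase genes 1 was higher and none lower.

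Metal response genes were higher in 8 of 13 cases and lower in none, with a median of 0.50. Metallothioneins bind zinc, copper and cadmium, and the 4 genes called were MtnA at 2.07 ± 0.41, MtnB at 1.27 ± 0.37, MtnD at 2.32 ± 0.44 and MtnE at 1.70 ± 0.43. The gene of their activator MTF-1 rose by 0.42 ± 0.05 (limma adjusted p = 2.51e-05). The transferrin gene Tsf3 rose by 1.00 ± 0.14 (limma adjusted p = 6.25e-05), and the ferritin heavy chain gene Fer1HCH by 0.50 ± 0.16 (limma adjusted p = 0.0279). At equal upper quartiles 7 were higher and 1 lower.

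Of 17 genes of the JNK pathway and its targets, 8 were higher and none lower, with a median of 0.28. The phosphatase gene puc (FBgn0243512, chromosome arm 3R) is induced by JNK and restrains it. Its counts were 779, 1108, 716 and 904 in female air and 4631, 4024, 4586 and 4809 in female smoke. For males the values were 997, 770.05, 797 and 929.7 in air and 3707, 3669, 3983 and 3779 in smoke. No smoke library came near an air library, and the 4 male smoke libraries spanned only 3669 to 3983. Its average log2 change was 2.25 ± 0.09 (limma adjusted p = 3.39e-10), 2.38 in females and 2.12 in males. The AP-1 genes kay (Fos) and Jra (Jun) rose by 0.94 ± 0.09 (limma adjusted p = 1.6e-06) and 0.66 ± 0.08 (limma adjusted p = 2.5e-05), while the kinase gene bsk, the fly JNK, was not called (0.04 ± 0.08). Its upstream kinase gene hep rose by 0.28 ± 0.05 (limma adjusted p = 0.000972), and the ligand gene egr was at 0.01 ± 0.20.

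The transcription factor gene Ets21C (FBgn0005660, chromosome arm 2L), which acts with AP-1 in stressed tissue, had counts of 68.8, 337, 63 and 173 in female air and 788, 1362, 1513 and 2666 in female smoke. In males they were 278, 78.6, 91.6 and 173 in air and 1048, 1240.5, 1315 and 1677 in smoke. All smoke libraries were above all air libraries, and air values varied by several fold within each sex. The log2 change was 3.37 ± 0.36 (limma adjusted p = 6.59e-06). Of 17 genes of apoptosis and DNA damage 7 were higher and 1 lower, and with the same upper quartile 4 and 1. The death inducer gene rpr rose by 2.16 ± 0.17 (limma adjusted p = 2.48e-07), whereas the related hid was lower, at -0.67 ± 0.19 (limma adjusted p = 0.0137). The gene of the apoptosis inhibitor Diap1 rose by 0.34 ± 0.10 (limma adjusted p = 0.0172). The bZIP factor gene Xrp1, induced by DNA and ribosome damage in flies, was abundant in air (17352 ± 1337 in females and 17524 ± 1585 in males) and rose by 1.12 ± 0.08 (limma adjusted p = 6.93e-08). Gadd45 rose by 1.75 ± 0.24 (limma adjusted p = 6.72e-05), and p53 was not called (-0.12 ± 0.08).

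Cytokine genes of the JAK-STAT pathway were low in air and rose. Of 9 genes tested 6 were higher and none lower, and 5 and none under either rescaling. The cytokine gene upd2 (FBgn0030904, chromosome X) had counts of 9.28, 42.2, 10.1 and 11 in female air and 113, 199, 172 and 381 in female smoke. Male libraries held 18.2, 14, 5.09 and 20.1 in air and 129, 86.1, 96.6 and 136 in smoke. Smoke libraries lay above air libraries in both sexes, and female air replicate 2 was again the highest air library. Its average change was 3.33 ± 0.35 (limma adjusted p = 5.81e-06). The sister cytokine gene upd3 rose by 2.11 ± 0.27 (limma adjusted p = 3.15e-05), the pathway inhibitor and target Socs36E by 1.62 ± 0.17 (limma adjusted p = 6.65e-06), and the receptor gene dome by 0.46 ± 0.14 (limma adjusted p = 0.0217). The STAT gene Stat92E was not called (0.05 ± 0.06).

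Of 28 genes of the Imd and Toll pathways 15 were higher and 1 lower, with a median of 0.27. After either rescaling 11 were higher and 1 lower. The 3 NF-kappaB genes Rel, dl and Dif rose by 0.94 ± 0.11, 0.65 ± 0.08 and 0.71 ± 0.11, with limma adjusted p-values of 1.38e-05, 2.67e-05 and 0.000137. The Toll ligand gene spz rose by 1.06 ± 0.14 (limma adjusted p = 5.42e-05), and the receptor genes Tl and PGRP-LC by 0.38 ± 0.07 and 0.47 ± 0.08. The largest rise was that of pirk (FBgn0034647, chromosome arm 2R), which encodes a brake on Imd signalling. Its counts were 4.64, 287, 8.82 and 25.4 in female air and 664, 382, 318 and 636 in female smoke, and 119.8, 3.11, 42 and 47.9 in male air and 1968, 859.7, 1159 and 1035 in male smoke. All smoke libraries lay above all air libraries, although female air replicate 2 came close to female smoke replicate 3. The gene rose on average by 4.72 ± 0.76 (limma adjusted p = 0.00025). None of 9 antimicrobial peptide genes, which these pathways switch on, was called by limma, edgeR or DESeq2, and 0 had an unadjusted limma p under 0.05. Their log2 changes ran from -0.48 ± 1.21 for AttC to 2.10 ± 1.24 for CecA1. The list median was 0.76 (0.95 in females and 1.04 in males), and 5 of the 9 genes were above 0 in both sexes and none below. That median was -0.65 with replicates 1 and 2 alone and 1.92 with replicates 3 and 4 alone. The peptide gene Drs was matched to no identifier, so it is not in this list.

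Of 20 genes of the insulin, FoxO and TOR pathways 8 were higher and 1 lower. The translation repressor gene Thor (FBgn0261560, chromosome arm 2L), the fly 4E-BP and a target of FoxO, had counts of 2343, 2023, 3123 and 3539 in female air and 12818, 11059.6, 17522 and 16251 in female smoke. Among males the counts were 3222, 1473, 4413 and 2313 in air and 17577, 9948, 19678 and 15421 in smoke. Smoke libraries lay above all air libraries in each sex. Its average log2 change was 2.46 ± 0.21 (limma adjusted p = 6.52e-07), nearly the same in females (2.40) and males (2.52). The genes foxo and REPTOR, whose factors act when insulin or TOR signalling is low, rose by 0.43 ± 0.14 (limma adjusted p = 0.0299) and 0.71 ± 0.13 (limma adjusted p = 0.000762). The insulin receptor substrate gene chico rose by 0.46 ± 0.08 (limma adjusted p = 0.000698) and the kinase gene Pi3K92E by 0.36 ± 0.05 (limma adjusted p = 7.98e-05), while Akt1 and Tor were not called (0.07 ± 0.06 and 0.06 ± 0.09). The REDD1-like gene chrb was lower, at -0.46 ± 0.12 (limma adjusted p = 0.00915).

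Of 18 genes of the unfolded protein and integrated stress responses 8 were higher and 1 lower. The gene PEK (FBgn0037327, chromosome arm 3R), the fly PERK kinase of the translation factor eIF2alpha, had counts of 1863, 2013, 1878 and 1778 in female air and 2811, 2767, 2703 and 3074 in female smoke. For males the values were 1803, 1736, 1695 and 1716 in air and 2748, 2744, 2818 and 2860.3 in smoke. Replicates of a group differed little, and smoke and air were clearly apart. The log2 change was 0.64 ± 0.04 (limma adjusted p = 2.45e-08). The other sensor gene Ire1 rose by 1.01 ± 0.08 (limma adjusted p = 2.71e-07) and its target Xbp1 by 0.43 ± 0.10 (limma adjusted p = 0.00319). The ATF4 gene crc rose by 0.19 ± 0.05 (limma adjusted p = 0.00592), Gcn2 by 0.25 ± 0.06 (limma adjusted p = 0.00427) and PPP1R15, the eIF2alpha phosphatase subunit, by 0.46 ± 0.06 (limma adjusted p = 3.21e-05). The endoplasmic chaperone genes Hsc70-3 and Gp93 were not called, at 0.18 ± 0.23 and 0.10 ± 0.16.

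Of 19 genes of autophagy and lysosome 9 were higher and 2 lower, and 6 and 4 under either rescaling. The initiating kinase gene Atg1 rose by 1.31 ± 0.13 (limma adjusted p = 2.8e-06), and its partners Atg13 and Atg17 by 0.35 ± 0.07 and 0.50 ± 0.09. The lower genes were Atg16 (-0.35 ± 0.06) and Atg5 (-0.19 ± 0.06), parts of the complex that conjugates Atg8. Of 18 genes of glycolysis and hypoxia 4 were higher, near the share of all genes tested, and none lower. Of the glycolytic enzymes only Hex-A was called (0.32 ± 0.10). After rescaling to the same upper quartile 2 were higher and none lower, and the median turned from 0.03 to -0.07. The pyruvate dehydrogenase kinase gene Pdk, which diverts pyruvate from mitochondria, rose by 2.48 ± 0.11 (limma adjusted p = 1.2e-09), from 972 ± 113 to 5269.9 ± 801 in females and from 1014 ± 227 to 5828 ± 1060.02 in males. The HIF prolyl hydroxylase gene Hph rose by 1.40 ± 0.10 (limma adjusted p = 9.64e-08) and the HIF gene sima by 0.28 ± 0.08 (limma adjusted p = 0.018). Of 19 lipid genes 6 were higher and none lower, with Lsd-2, a lipid droplet perilipin gene, at 0.71 ± 0.13 and the lipase genes bmm and Hsl at 1.06 ± 0.25 and 0.41 ± 0.09. The medians of this list were 0.44 in females and -0.09 in males, and 5 of the 19 genes passed the test of a sex difference.

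**Figure D3:**
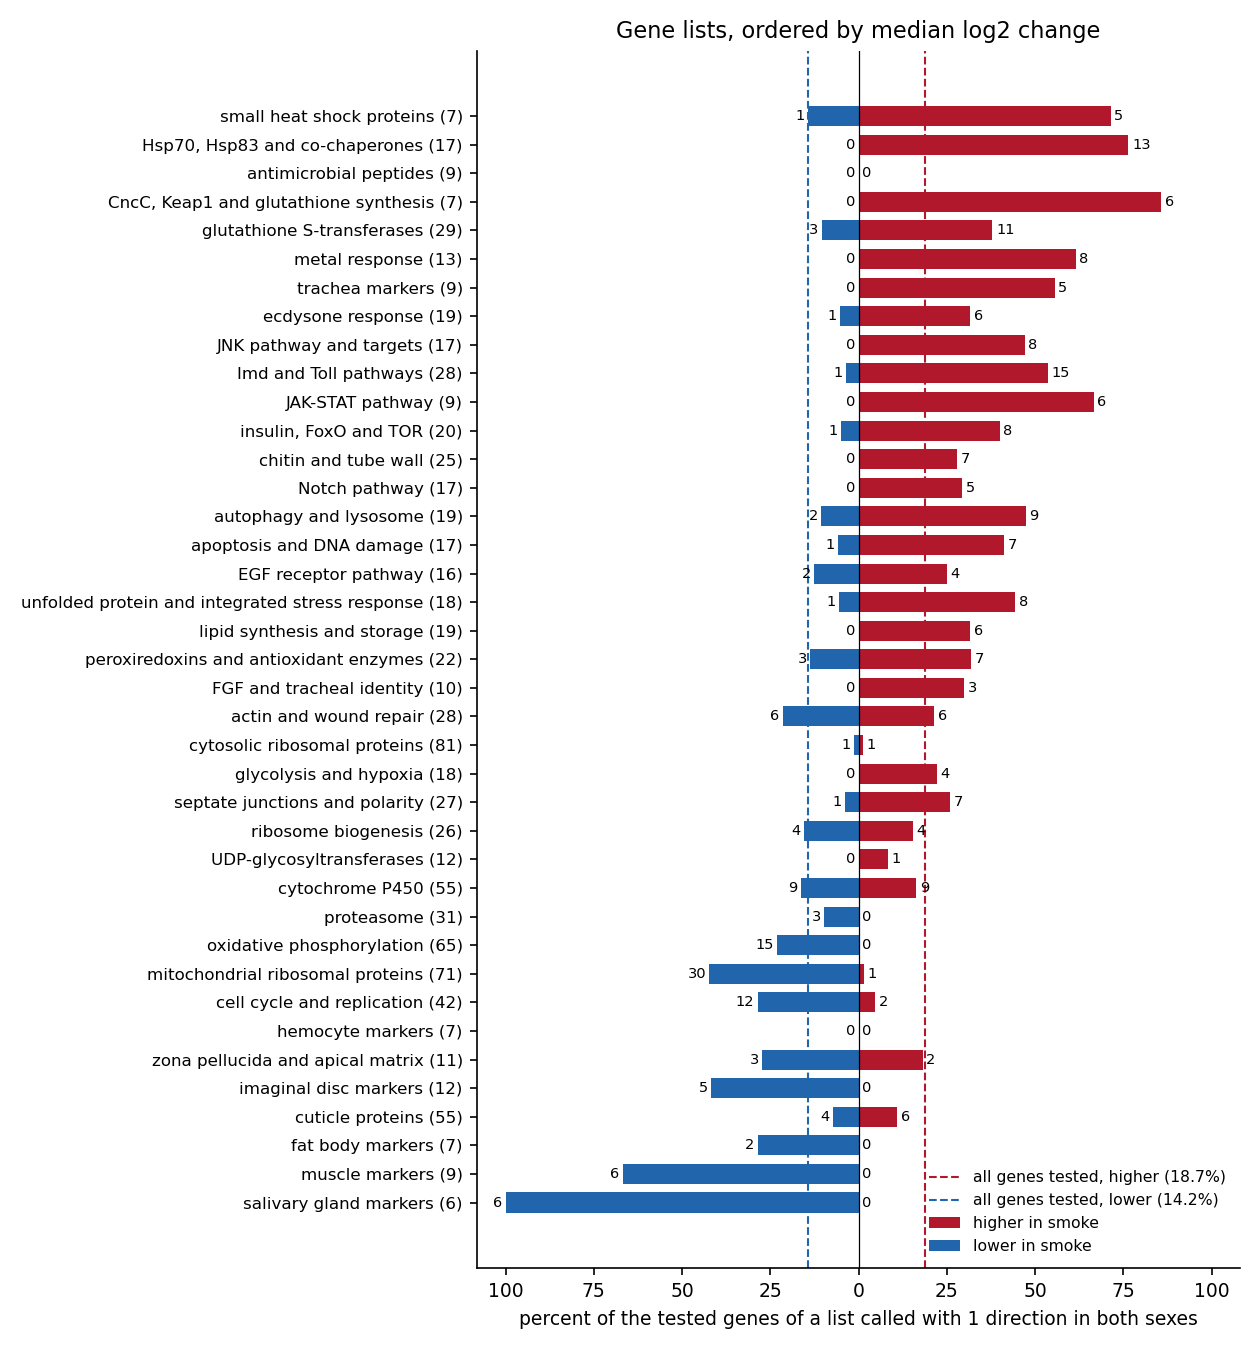
Bars give the percent of the tested genes of each list (number in parentheses) that were higher (red, to the right) or lower (blue, to the left) in smoke in both sexes, with counts at the bar ends and lists ordered by median log2 change. Dashed lines mark the same percents over all genes tested, 18.7% and 14.2%. Heat shock, CncC, JAK-STAT, metal response, trachea marker and Imd and Toll lists reach furthest to the right, and salivary gland, muscle, mitochondrial ribosomal and imaginal disc lists furthest to the left.

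Genes that define the trachea were higher or not called. Of 9 trachea markers 5 were higher and none lower, with a median of 0.32 (0.37 in females and 0.15 in males). Under either rescaling, or by DESeq2, 5 were higher and 1 lower. The planned marker btl was matched to no identifier. The gene trh (FBgn0262139, chromosome arm 3L) encodes the factor that specifies tracheal cells. Its counts were 7463, 11482, 8942 and 8554 in female air and 11588, 11859.6, 13069 and 15058 in female smoke. In males they were 9916, 8796, 8525 and 12132 in air and 13662, 14192, 15593 and 17326 in smoke. Smoke lay above air in each sex by a small margin, and female air replicate 2 nearly reached female smoke replicate 1. The gene rose on average by 0.57 ± 0.10 (limma adjusted p = 0.000452). Because tissue was sampled in bulk, a larger or smaller share of cells of a type cannot be told apart from more or less RNA per cell. Summed over the 9 markers the level was 5758 to 7998 CPM (reads per 1000000 reads assigned to genes) in female air and 8251 to 10597 in female smoke. In males it was 6811 to 9616 and 9475 to 12268. The part of this sum in other changes was not tested.

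Among genes of the FGF pathway, which guides tracheal branching, and of tracheal identity 3 of 10 were higher and none lower. The FGF gene bnl and the adaptor gene stumps rose by 0.58 ± 0.18 (limma adjusted p = 0.0205) and 0.33 ± 0.10 (limma adjusted p = 0.0186), and the factor genes pnt and vvl were not called (-0.07 ± 0.07 and -0.20 ± 0.08). At equal upper quartiles 2 genes of this list were higher and 2 lower, and its median turned from 0.07 to -0.03. Of 17 Notch pathway genes 5 were higher and none lower. The Notch target genes E(spl)mbeta-HLH and E(spl)m3-HLH rose by 1.20 ± 0.12 and 0.58 ± 0.11, and mib1, a ubiquitin ligase for Notch ligands, by 0.52 ± 0.05 (limma adjusted p = 3.27e-06). Of 16 genes of the EGF receptor pathway 4 were higher and 2 lower, with Mkp3, an ERK phosphatase gene, at 0.40 ± 0.09. These EGF receptor list counts are near the shares of all genes tested. Under either rescaling 2 were higher, and leaving out any 1 of 11 libraries left 1 lower. In the ecdysone list 6 of 19 were higher and 1 lower, and the receptor gene EcR rose by 0.62 ± 0.07 (limma adjusted p = 5.75e-06) and Kr-h1, a juvenile hormone response gene, by 1.10 ± 0.18 (limma adjusted p = 0.00025).

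Of 25 genes of chitin and the tube wall 7 were higher and none lower, and with the same total 6 and 1. The chitin deacetylase genes verm and serp, which control tube length, were abundant in air (42333 ± 8227 and 31367 ± 6932 in females) and rose by 0.73 ± 0.14 (limma adjusted p = 0.000939) and 0.70 ± 0.15 (limma adjusted p = 0.00239). The zona pellucida domain gene dyl (FBgn0066365, chromosome arm 3L), which shapes cuticle in epithelial cells, was low in air. Its counts were 8.51, 17.6, 13.9 and 24.3 in female air and 656, 538, 712 and 1447 in female smoke, and 42.1, 1.56, 10.2 and 26.8 in male air and 549, 437, 492 and 864 in male smoke. The groups were far apart in both sexes, and its change (log2) was 5.49 ± 0.46 (limma adjusted p = 5.16e-07). Of 11 genes for zona pellucida and apical matrix proteins, dyl and pio were higher and zye, mey and nyo lower (5 lower under either rescaling), with nyo at -0.93 ± 0.25 (limma adjusted p = 0.0103). The gene e (ebony), which makes the precursor of tan cuticle sclerotin, rose by 3.42 ± 0.65 (limma adjusted p = 0.00098) with replicate 4 of both sexes by far the highest in smoke, at 4321 and 3038.

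Of 55 cuticle protein genes tested 6 were higher and 4 lower, smaller shares than the 18.7% and 14.2% of all genes tested. The list medians were 0.19 in females and -1.78 in males, and 8 genes passed the test of a sex difference. The lower genes numbered 12 without female air replicate 2 and 11 without male smoke replicate 2. They numbered 1 or 2 without female air replicate 3 or any 1 of male air replicates 1 to 3 and male smoke replicates 1, 3 and 4. Cpr47Eb, an abundant gene, rose from 19179 ± 6114 to 49364 ± 11276 in females and from 21882 ± 6813 to 40571 ± 10637 in males, by 1.15 ± 0.21 (limma adjusted p = 0.000628) on the log2 scale. Its neighbours Cpr47Ea and CG13223 rose by 1.66 ± 0.39 and 1.12 ± 0.26. Of 27 genes of septate junctions and polarity 7 were higher and 1 lower, which turned to 4 and 6 with the same upper quartile. The polarity genes sdt and baz rose by 0.48 ± 0.07 and 0.38 ± 0.05. Of 28 genes of actin and wound repair 6 were higher and 6 lower, not far from the shares of all genes tested. With the same upper quartile 5 were higher and 7 lower, the list median turning from 0.06 to -0.03. Lower genes of this list numbered 3 without female air replicate 1, male smoke replicate 1 or male smoke replicate 4, and higher genes 9 without female air replicate 2. The filamin gene cher rose by 0.79 ± 0.08 (limma adjusted p = 3.97e-06) and the integrin gene mys by 0.43 ± 0.06 (limma adjusted p = 7.46e-05).

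Of 71 mitochondrial ribosomal protein genes 30 were lower and 1 higher, with a median of -0.22 against -0.02 for all genes tested, and 55 were below 0 in both sexes. The counts of mRpS35 (FBgn0035374, chromosome arm 3L) were 318, 364, 355 and 391 in female air and 247, 269, 257 and 276 in female smoke. Male libraries held 324, 308, 343 and 357 in air and 266, 264, 263 and 272 in smoke. Smoke lay below air in both sexes with a small and even difference. Its average log2 change was -0.38 ± 0.05 (limma adjusted p = 8.93e-05), and those of mRpL44 and mRpL9 were -0.43 ± 0.06 and -0.40 ± 0.07. The 2 rescalings, by upper quartile and by total, gave 47 and 51 lower genes. Of the cytosolic ribosomal protein genes 1 of 81 tested was higher and 1 lower, at a median of 0.04, which turned to -0.06 with the same upper quartile. The 26 genes of ribosome biogenesis held 4 higher and 4 lower, near the shares of all genes tested. They held 2 and 9 with the same upper quartile, and 9 lower without male smoke replicate 2.

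Oxidative phosphorylation genes were lower in 15 of 65 cases and higher in none, with a median of -0.19, and 58 were below 0 in both sexes. The complex I gene ND-B14 fell by 0.37 ± 0.08 (limma adjusted p = 0.00318), and the cytochrome c oxidase gene cype changed by -0.25 ± 0.06 (limma adjusted p = 0.00655). The lower genes numbered 24 without female air replicate 2, 9 without female air replicate 3, female smoke replicate 4 or male smoke replicate 4, and 36 and 48 with the same upper quartile and total. Of 31 proteasome genes 3 were lower and none higher, a smaller share of lower genes than the 14.2% of all genes tested. Of the 31 genes 29 were below 0 in both sexes, and 20 were lower with the same upper quartile. With 1 library left out 0 to 10 proteasome genes were lower, the count falling or rising past 1.5-fold for 8 of the 16 libraries. The 3 were Rpn12 at -0.25 ± 0.08, Prosalpha7 at -0.18 ± 0.06 and Prosalpha6 at -0.21 ± 0.07. Muscle markers, described with the other tissues, were also lower in smoke, and their part in these changes was not tested.

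Of 42 cell cycle and replication genes 12 were lower and 2 higher. The median of the list was -0.24, at -0.46 in females and -0.02 in males. The kinase gene Cdk2 (FBgn0004107, chromosome arm 3R), which drives entry into S phase, had counts of 406, 296, 386 and 409.7 in female air and 172, 196, 182 and 172 in female smoke. Among males the counts were 254, 297, 341 and 234 in air and 181, 181, 213 and 144 in smoke. Smoke was below air in both sexes, by more in females. The log2 change was -0.84 ± 0.11 (limma adjusted p = 4.59e-05), -1.04 in females and -0.64 in males, a difference that did not pass its own test (limma adjusted p = 0.402). PCNA, the sliding clamp of DNA polymerase, and geminin, a licensing inhibitor, were lower by 0.55 and 0.42 on the log2 scale. The lower genes of this list numbered 19 without male air replicate 4 and 21 with the same upper quartile.

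Small nucleolar RNAs, which guide chemical marks on ribosomal RNA, were looked at after their values had been seen. Of 22 snoRNA genes tested 15 were lower and none higher, with a median of -0.97 (-1.09 in females and -0.77 in males). Of the 22 only 4 reached the filter on low values by their smoke libraries alone, as did 3 of the 15, so most entered with the help of their air libraries, and these counts are a description. With no filter 58 of 220 snoRNA genes were lower and 2 higher, with a median of -0.48. Counts of snoRNA:Psi28S-291 (FBgn0065064, chromosome arm 3R) were 68.8, 114, 70.6 and 59.6 in female air and 18.5, 31.5, 26.8 and 30.6 in female smoke. For males the values were 77.6, 86.4, 61 and 67.1 in air and 26.2, 37.5, 23.8 and 31.6 in smoke. The groups did not overlap in either sex. On the log2 scale it changed by -1.38 ± 0.16 (limma adjusted p = 1.47e-05), and snoRNA:Me28S-G2017 by -1.67 ± 0.24 (limma adjusted p = 0.000112). The more abundant snoRNA:Psi18S-531 changed by -0.41 ± 0.11 (limma adjusted p = 0.00933). Mean counts in female air ran from 11.5 to 137, so most of these genes rest on few reads. Fly snoRNAs mostly lie within introns of host genes, and whether reads of host transcripts were counted in them was not tested. With 1 library left out 13 to 16 were lower, with replicates 1 and 2 alone 2, and with replicates 3 and 4 alone 7.

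**Figure D4:**
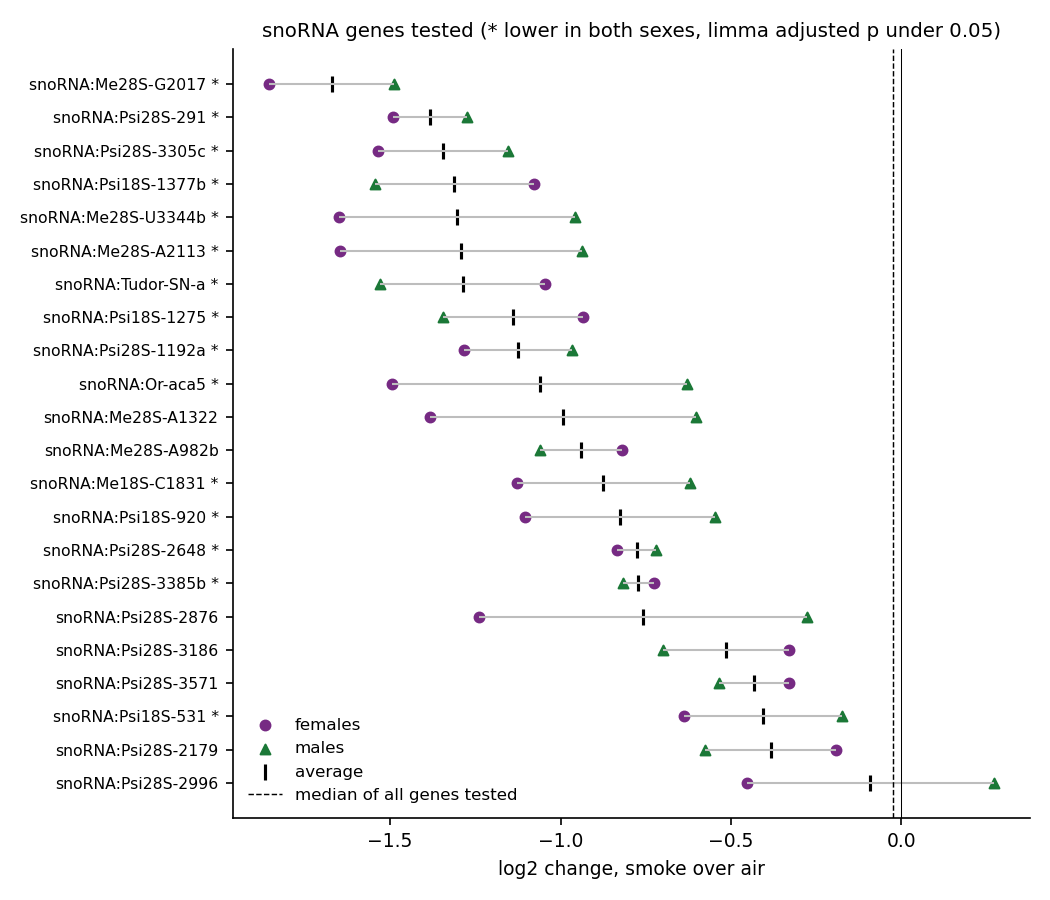
Log2 changes (smoke over air) of the 22 snoRNA genes tested, with circles for females, triangles for males, a tick for the average and a dashed line at the median of all genes tested. The 15 genes with an asterisk were lower in both sexes, and snoRNA:Psi28S-2996 is the 1 gene with opposite signs.

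The remaining large falls, taken from the 12 largest with no overlap of smoke and air in both sexes, were genes of modest level. The channel-like gene bib (FBgn0000180, chromosome arm 2L), known from neural development, had counts of 442, 631, 386 and 485 in female air and 187, 182, 204 and 279.8 in female smoke. In males they were 413, 452, 493 and 499 in air and 223, 279, 224 and 297 in smoke. Smoke and air did not overlap in either sex, and its change (log2) was -1.02 ± 0.12 (limma adjusted p = 1.49e-05). The homeobox genes so and Awh, known from eye and abdominal imaginal development, changed by -2.32 ± 0.52 (limma adjusted p = 0.00359) and -1.15 ± 0.26 (limma adjusted p = 0.00404). The receptor-like gene otk2 changed by -1.01 ± 0.17 (limma adjusted p = 0.000298) and the ionotropic receptor gene Ir51b by -0.89 ± 0.16 (limma adjusted p = 0.000648). The non-coding genes lncRNA:iab4 and asRNA:bsAS changed by -1.07 ± 0.18 and -0.91 ± 0.19. For NT5E-2 and Obp44a male air replicate 3 was the highest library, at 1293 and 1871. Among genes with only a CG number, CG6012 and CG13196 changed by -2.26 ± 0.30 (limma adjusted p = 4.51e-05) and -1.81 ± 0.19 (limma adjusted p = 3.97e-06).

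The genes with the smallest p-values were looked at after their values had been seen. The uncharacterised gene CG2765 (FBgn0035087, chromosome arm 2R) had counts of 2321, 2317, 2318 and 2261 in female air and 8902, 8558, 8316 and 9395 in female smoke. Male libraries held 3016, 2263, 2236 and 2396 in air and 8739, 8194, 8472 and 8882 in smoke. Its average change was 1.87 ± 0.06 (limma adjusted p = 2.16e-11), the smallest p of all genes tested. DPCoAC, a mitochondrial carrier gene of dephospho-coenzyme A, rose by 2.07 ± 0.10 (limma adjusted p = 3.9e-09), and milt, the adaptor gene that ties mitochondria to kinesin, by 0.77 ± 0.04 (limma adjusted p = 6.2e-09). Among the lower genes the smallest p was that of CG6700 (FBgn0032305, chromosome arm 2L), with counts of 2531, 2224, 1981 and 2086 in female air and 966, 1102, 986 and 957 in female smoke, and 2264, 2568, 2029.9 and 2036 in male air and 1201, 954, 1070.2 and 921 in male smoke. It changed by -1.12 ± 0.07 (limma adjusted p = 3.76e-08). Of the 12 lower genes with the smallest p, PNUTS, a targeting subunit of phosphatase PP1, changed by -0.71 ± 0.06, the U1 spliceosome gene snRNP-U1-70K by -0.60 ± 0.07, ZC3H3 by -0.80 ± 0.07 and Arglu1 by -0.72 ± 0.08. Also among them were Ae2, an anion exchanger gene, at -0.65 ± 0.06, and Ipp, an inositol phosphatase gene, at -0.46 ± 0.05.

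Markers of other tissues were lower or not called. Over lists of salivary gland, muscle, midgut, fat body, hemocyte and imaginal disc markers, 20 of 45 genes tested were lower and none higher, and 17 of the 20 fell at least 2-fold. All 6 salivary gland genes tested were lower by limma and edgeR, with Sgs7 at -3.60 ± 1.02 (limma adjusted p = 0.0142), while DESeq2 gave them no adjusted p. Their summed level was 59.8 to 323 CPM in female air and 3.29 to 11.9 in female smoke. In male air it was 7667 CPM in replicate 3 and 11.8 to 35.5 in the others, and in male smoke 4.03 to 35.6. Without that library all 6 were still called lower. With each sex tested alone, 6 were called in females and 0 in males.

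Muscle markers were lower in 6 of 9 cases. Their summed level was 604 to 10742 CPM in female air, where replicate 2 was the lowest, and 1115 to 5080.2 in female smoke. In males it was 2153 to 10473 in air and 413 to 2567 in smoke. The groups overlapped in both sexes. The giant sarcomere genes sls and bt changed by -0.97 ± 0.29 (limma adjusted p = 0.0194) and -1.96 ± 0.66 (limma adjusted p = 0.0333), and 9 of the 9 were called without female air replicate 2 or female smoke replicate 3. Leaving out any of 9 other libraries left 1 called, among them female air replicates 3 and 4 and male air replicates 3 and 4. For fat body markers the sums were 836 to 5319.9 and 1077 to 4571 CPM in female air and smoke. In male air replicate 3 held 27048 CPM against 949 to 4025 in the other male air libraries and 196 to 1452 in male smoke. Of 7 fat body genes 2 were lower, Fbp1 and Obp99b. With 1 library left out 0 to 5 were called, and the count moved past 1.5-fold for 14 of the 16 libraries. None of 7 hemocyte markers was called by limma, edgeR or DESeq2, 0 had an unadjusted limma p under 0.05, and 1 of 4 midgut markers was lower. No marker gene was at 0 in every library. Imaginal disc markers were lower in 5 of 12 cases, with dac at -3.14 ± 0.86 (limma adjusted p = 0.012) and Antp at -0.57 ± 0.13 (limma adjusted p = 0.00363). With each sex tested alone, 6 disc markers were called in females and 1 in males, and zfh2 was above 0 and not called (0.30 ± 0.15). The disc marker sums were 826 to 1536 CPM in female air and 719 to 1188 in female smoke. In males they were 779 to 1281 in air and 888 to 1280 in smoke, with overlap in both sexes. Without male air replicate 3 the whole response held 1502 higher and 1090 lower genes, and the part of these tissues in the lower genes was not tested.

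**Figure D5:**
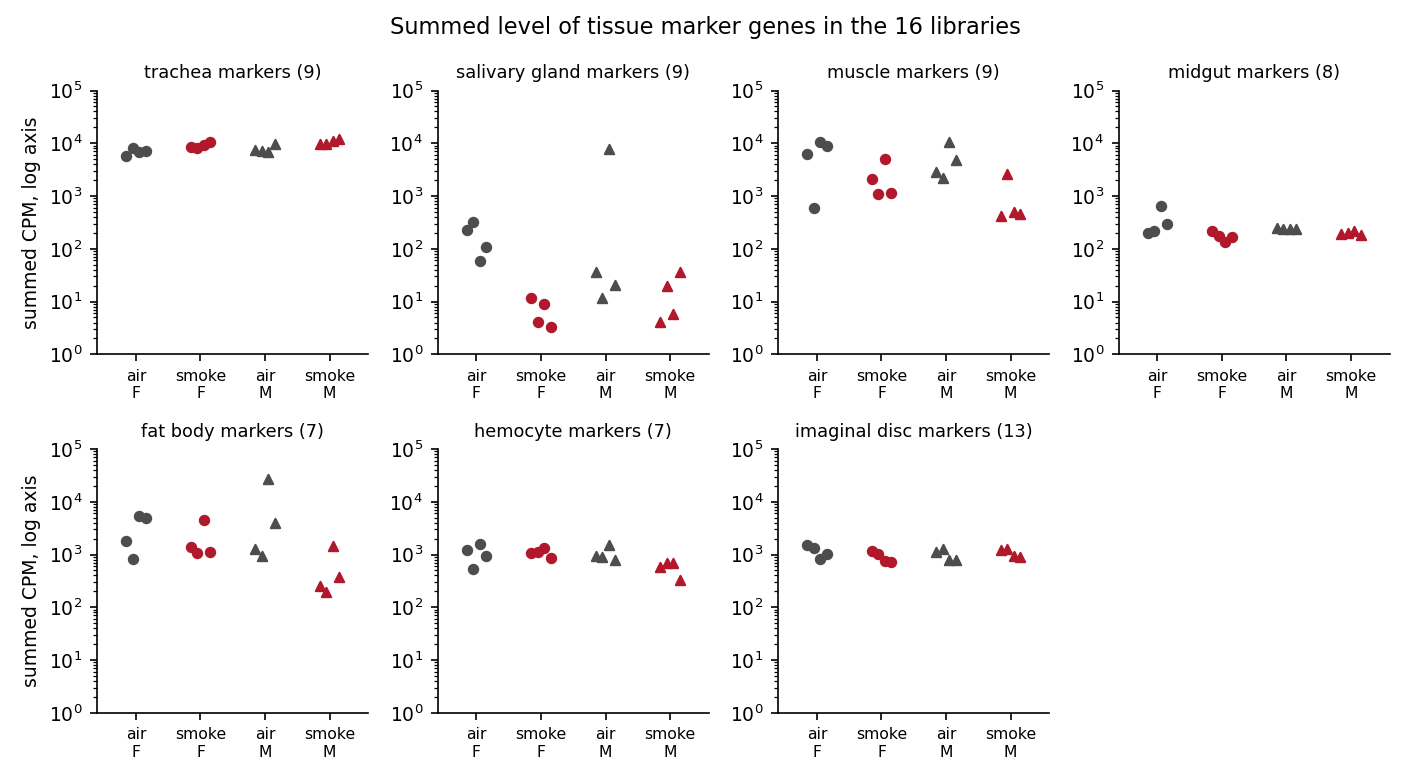
Summed CPM on a log axis of marker genes of 7 tissues (number of genes in parentheses) in each library, with circles for females (F), triangles for males (M), grey for air and red for smoke. Trachea markers lie between 5758 and 12268 CPM, salivary gland markers are lower in female smoke than in female air, and male air replicate 3 is the single high point for salivary gland and fat body.

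A few members changed in the same direction but by unequal amounts. Of the 23 members that passed the test of a sex difference, 20 changed more in females. The insulin binding protein gene ImpL2 (FBgn0001257, chromosome arm 3L) had counts of 896, 1336, 952 and 1096 in female air and 7605, 7482, 8696 and 9363 in female smoke. Among males the counts were 1095, 1486, 1404 and 1888 in air and 3633, 3915, 4408 and 6983 in smoke. All smoke libraries were above all air libraries, with higher smoke values in females. The average log2 change was 2.31 ± 0.22 (limma adjusted p = 1.6e-06), and the female minus male difference was 1.30 ± 0.29 (limma adjusted p = 0.0271). The chitin-binding tube protein gene Gasp changed by 0.64 in females and 0.15 in males, and Cyp6a20 by 5.12 in females and 1.55 in males, from very low levels. The 3 of the 23 that changed more in males were CG31612, Lkr and tup. The average over both sexes cannot call genes that move by like amounts in opposite directions. Called in each sex alone with opposite directions were 62 genes, and by the authors' deposited tables a set of 86 genes was upregulated in females and downregulated in males and 0 the reverse. The average effect was called for 6 genes with opposite signs, CG14598, wat, CG13069, bchs, CG9135 and ninaC, and in each of them 1 sex was close to 0, as in wat with 1.28 in females and -0.09 in males.

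Members were spread over the genome with few exceptions. The share of higher genes was between 15.6% and 20.1% on the 5 large chromosome arms, and the share of lower genes between 11.3% and 16.9%. Chromosome 4, looked at after its values had been seen, held 2 higher and 16 lower of 71 genes tested, among them the muscle gene bt. The lower genes numbered 8 without female smoke replicate 4, 9 without female air replicate 1, male air replicate 2 or male smoke replicate 4, and 10 without male smoke replicate 3. They numbered 30 under either replicate block or with a term that set replicates 1 and 2 against 3 and 4. Runs of at least 3 neighbouring members with a change of at least 2-fold were the Prx2540 run, the Hsp70B copies, GstD2 to GstD4, Cpr47Ea to CG13223, Vrp1 with CG30280 and CG30281, 2 runs of glue genes, and CG1674, RhoGAP102A and NfI on chromosome 4. With genes ranked in 5 equal bins of air level, from lowest to highest, 10.7%, 12.8%, 18.7%, 26.6% and 24.6% were higher. From lowest to highest bin 16.7%, 20.6%, 15.2%, 10.2% and 8.37% were lower, and the bins were not tested against each other.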

How the data were processed

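RNA of larval trachea was measured by RNA sequencing in 16 libraries, 4 for each sex and treatment, with single-end reads per the labels. Per the submitters' processing notes, STAR 2.6.0c and DESeq2 1.22.2 were used. Those notes name a human genome build although all gene identifiers are from FlyBase, so no coordinates are given. The deposited tables, 1 for each sex, hold a normalised signal per gene, which is a read count divided by a size factor of the library. The value of 1 read was taken as the smallest value above 0 in each library. Dividing by it returned whole reads for 100% of values within 0.01 read, with size factors of 0.750 to 1.30. The authors' deposited tables of each comparison give, per the file headers, a log2 fold change, a test score, a p-value and an FDR from DESeq2, and served here for the overlap of called genes only. The Ensembl annotation BDGP6.54 held 17253 of the 17559 identifiers and gave their chromosome arm, and 4413 genes took their symbol from a reference table of gene names.

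Genes at 10 or more in at least 4 libraries of each table were kept (8606). Values were fitted as log2(value + 1) with limma 3.58.1 in R 4.3.3 (trend, terms for sex and smoke), with Benjamini-Hochberg adjustment over all genes tested and a threshold of 0.05. The sex difference was the interaction in a model of 4 group means, and each sex was also fitted alone. edgeR 4.0.16 and DESeq2 1.42.0 on the recovered whole reads were alternatives. The test was checked on simulated data. The count tests served as alternatives only, since the values are deposited in normalised form. Depth sets precision, and genes with few reads carry more error.

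The members and 40 gene lists were chosen with earlier results of these data known, so no list count is independent evidence. Genes were named by rule: the 12 largest rises and 12 largest falls with no overlap of smoke and air in either sex and a group mean of at least 20 in each sex, up to 2 more per direction with only a CG number, up to 3 called genes per list by adjusted p, and a set of fixed genes, of which btl and Hsp22 were not analysed here. Other list members, and the genes with the smallest p-values, were named after their values had been seen. No value column lacked a sample.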

Additional observations from a re-analysis of the deposited data

Results flagged for a closer look

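In 540 groups of 4 libraries, of named genes and of marker sums, 63 held a library apart from the other 3, with a gap over the range of the group above Dixon's critical value. For independent values of a normal distribution about 1 in 20 would pass. These are untransformed counts of genes that share libraries, so the 63 cannot be set against that rate. Male air replicate 3 was the highest of its group, with a gap share of 0.914 for NT5E-2, 0.97 for Obp44a, 0.929 for GstE1, 0.836 for RpS15Ab, 0.942 for cype, 0.995 for Sgs7, 0.992 for Sgs5 and 0.994 for Sgs8. For the same library it was 0.874 for bt, 0.911 for Fbp1, 0.923 for Obp99b, 0.997 for salivary gland markers and 0.882 for fat body markers. Female air replicate 2 was the highest of its group, with a gap share of 0.927 for pirk, 0.861 for Hsp26, 0.988 for e, 0.882 for Hsp67Bc, 0.897 for Gclc, 0.946 for upd2, 0.842 for Socs36E and 0.832 for Rel. For the same library it was 0.87 for stumps, 0.854 for bnl and 0.851 for Hsp27. Female smoke replicate 4 was the highest of its group, with a gap share of 0.889 for e, 0.953 for Cyp6a20, 0.838 for rpr, 0.8294 for Rel and 0.836 for Keap1. Female air replicate 3 was the highest of its group, with a gap share of 0.913 for Prx2540-2, 0.96 for Prx2540-1, 0.917 for CG11825 and 0.962 for CG12896. Male air replicate 1 was the highest of its group, with a gap share of 0.876 for Rel, 0.947 for sdt and 0.896 for midgut markers. Male smoke replicate 2 was the highest of its group, with a gap share of 0.943 for Tm2, 0.955 for bt and 0.962 for muscle markers. Male smoke replicate 3 was the highest of its group, with a gap share of 0.903 for Obp99b, 0.969 for dac and 0.859 for fat body markers. Female air replicate 1 was the lowest of its group, with a gap share of 0.844 for verm and 0.881 for mRpL9. Female smoke replicate 1 was the highest of its group, with a gap share of 0.894 for MtnD and 0.901 for Gasp. Female smoke replicate 1 was the lowest of its group, with a gap share of 0.873 for NT5E-2 and 0.836 for spz. Female smoke replicate 3 was the highest of its group, with a gap share of 0.847 for dac and 0.916 for fat body markers. Male air replicate 4 was the highest of its group, with a gap share of 0.884 for GstD2 and 0.83 for serp. Male smoke replicate 3 was the lowest of its group, with a gap share of 0.862 for Mkp3 and 0.838 for Kr-h1. Male smoke replicate 4 was the highest of its group, with a gap share of 0.903 for e and 0.866 for stumps. Female air replicate 2 was the lowest of its group, with a gap share of 0.858 for so. Female air replicate 4 was the highest of its group, with a gap share of 0.84 for Tsf3. Female smoke replicate 2 was the lowest of its group, with a gap share of 0.962 for Pi3K92E. Male air replicate 2 was the highest of its group, with a gap share of 0.923 for Prosalpha7. Male air replicate 2 was the lowest of its group, with a gap share of 0.873 for Vps15. Male smoke replicate 1 was the highest of its group, with a gap share of 0.841 for Nop17l. Male smoke replicate 2 was the lowest of its group, with a gap share of 0.929 for ref(2)P. The smoke effect also differed in size between the sexes for 3 named genes by the test of the interaction. The female minus male log2 change was 3.57 for Cyp6a20 (limma adjusted p = 0.0305), 1.30 for ImpL2 (limma adjusted p = 0.0271) and 0.492 for Gasp (limma adjusted p = 0.0316).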

How the results depend on the processing

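Counts of genes higher, lower, different between the sexes, and called in each sex alone were 1608, 1224, 187 and 560. The alternatives for the last of these were chosen after seeing the data. Scaling moved the split most. With the same upper quartile 2135 genes were lower, and with the same total 1053 were higher and 1993 lower, and the median of all genes moved by -0.09. Array weights gave 323 sex differences and 884 genes called in each sex alone, and DESeq2 gave 342 and 891. The naming-style batch (replicates 1 and 2 against 3 and 4) as a term gave 436 and 918. Replicates 1 and 2 alone gave 758 higher, 309 lower and 61 sex differences, and replicates 3 and 4 alone gave 621 lower and 1, with 8 libraries in each. With 1 library left out, higher genes numbered 1426 to 1708, lower genes 972 to 1412, sex differences 131 to 188, and genes called in each sex alone 316 to 650. That last count was 329 without male air replicate 2, 316 without male smoke replicate 1 and 365 without male smoke replicate 4.

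Same-numbered air and smoke libraries of a sex deviated together with correlations from -0.08 to 0.51, and 12 of 16 libraries correlated best with their own number, a hint from the data and not the design. The samples are taken to share only a number. A replicate block shared by both sexes gave 1942 lower genes and 817 sex differences, and a replicate block within each sex gave 669 sex differences and 1206 genes called in each sex alone. Of 128 named genes, 71 kept their direction and their side of the threshold under every setting. Over 3949 pairs of gene and setting, 163 lost the call and none reversed, among them 44 with replicates 1 and 2 alone and 26 with 3 and 4 alone. Depth limits genes with few reads, such as the snoRNAs and the Hsp70 copies in male air.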
